A study of Mus musculus with 8 samples.

Results

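The AMPA receptor genes and their auxiliary subunits were followed here: the pore subunits Gria1 to Gria4, the transmembrane AMPA receptor regulatory proteins (TARPs) Cacng2, Cacng3, Cacng4 and Cacng8, and the cornichons Cnih2 and Cnih3. Members were chosen by name, as every non-control probe whose array identifier leads through RefSeq to one of these 10 symbols. They had 15 of the array's 39429 probes, and 14 of the 15 were among the 25783 probes bright enough to test. By gene, 10 of the 20144 genes named on the array were members, and each had at least 1 tested probe.

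Dissociated mouse hippocampal neurons were kept in culture for 10 days, infected with a lentivirus and kept for 6 more days before total RNA was taken. The virus carried either Flag-tagged Nr4a1 or GFP, so both groups were infected, and no uninfected group is among the samples used here. Each group had 4 RNA samples on 4 Agilent mouse arrays read in Cy5 and Cy3, and each of the 4 replicate numbers joins 1 array of either group by a pair tag in the labels. A batch label puts replicates 1 to 3 of both groups in batch 1 and replicate 4 of both in batch 2. The sources used here do not state the strain, the age of the animals, the promoter that drove the transgene or whether replicates were separate cultures, so p-values cover only the scatter of these RNA samples, which could be technical. The series title names spine density and the distribution of excitatory synapses, and comparing Nr4a1 with GFP asks which transcripts differ when Nr4a1 is supplied.

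AMPA receptors are the glutamate-gated channels that carry most fast excitatory transmission in the brain, and each is built from 4 pore subunits. TARPs bind the pore, carry receptors to the surface and to synapses and slow their gating, while cornichons promote export from the endoplasmic reticulum and also slow deactivation. In hippocampal pyramidal neurons most receptors hold the Gria2 product, which keeps calcium out of the pore, and Cacng8 and Cnih2 are the auxiliary subunits best known from that tissue. Nr4a1 is an orphan nuclear receptor and transcription factor, itself induced by neuronal activity.

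On every array the culture's RNA was labelled with Cy5 and a commercial mouse reference RNA with Cy3, with no dye swap. A level is given as the log2 ratio of culture over reference, and levels of different probes are not set against each other. A difference is the Nr4a1 minus the GFP log2 ratio from limma with the pair as a block, and a probe is called where its Benjamini-Hochberg adjusted p over all tested probes is under 0.05. The arrays were of like brightness, with medians over spots of 137 to 194 in Cy5 and 141.5 to 154 in Cy3 and 0 saturated spots, and their number limits the precision. The probe for Nr4a1 itself did not separate the groups: its log2 ratios were -2.06, -2.12, -1.90 and -2.49 on the GFP arrays and -1.32, -2.49, -1.20 and -2.37 on the Nr4a1 arrays, with a limma difference of 0.30 ± 0.15 (SE) and an adjusted p of 0.194. Whether this probe lies within the sequence the virus carried is not known here, so the groups below are those of arrays labelled Nr4a1 and arrays labelled GFP. By the file headers slide 1 held the GFP-labelled arrays alone, and the Nr4a1-labelled arrays were divided between slide 2 (replicates 1 to 3) and slide 3 (replicate 4). The scans divided the arrays in the same way. A difference between the transgenes therefore cannot be told apart from one between slides or scans.

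Of the 14 tested member probes, 8 were lower on the Nr4a1-labelled arrays, 0 were higher, also at an unadjusted limma p under 0.05, and 6 were not called. Over all tested probes 11.7% were called lower and 12.1% higher, 23.8% in all. The members were chosen with earlier results of these data known, so their shares describe the list and do not test it. Counted by the brightest probe of each gene, 6 of the 10 member genes were lower and 4 were not called, beside 11.4% lower, 12.7% higher and 24.1% called in either direction over all 21116 genes and unnamed transcripts. The median member difference was -0.21 in log2, where the median over all tested probes was -0.005. The changes were small: the called probes fell by 0.20 to 0.62 in log2. On 2 of the 14 probes (14.3%) the 4 Nr4a1-labelled arrays lay wholly below the 4 GFP-labelled arrays, while 23.8% of all tested probes had groups that did not overlap. Of all calls 51.0% were higher, and 71.5% were with arrays centred on their median in place of loess. With the slide as a random block, at an estimated correlation of 0.863, limma called 0 member probes and 14 of all probes, and 1 member probe had an unadjusted p under 0.05. The differences of the called probes were between -0.20 and -0.65 in that fit, with Cnih3 at -0.65, the brighter Cnih2 probe at -0.33 and the brighter Gria4 probe at -0.27. Because no slide held arrays of both groups, that fit cannot separate the transgene from the slide. Without the pair as a block 3 member probes were called lower, the brightest probes of Gria4 and Cnih2 and the probe of Cnih3.

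**Figure D1:**
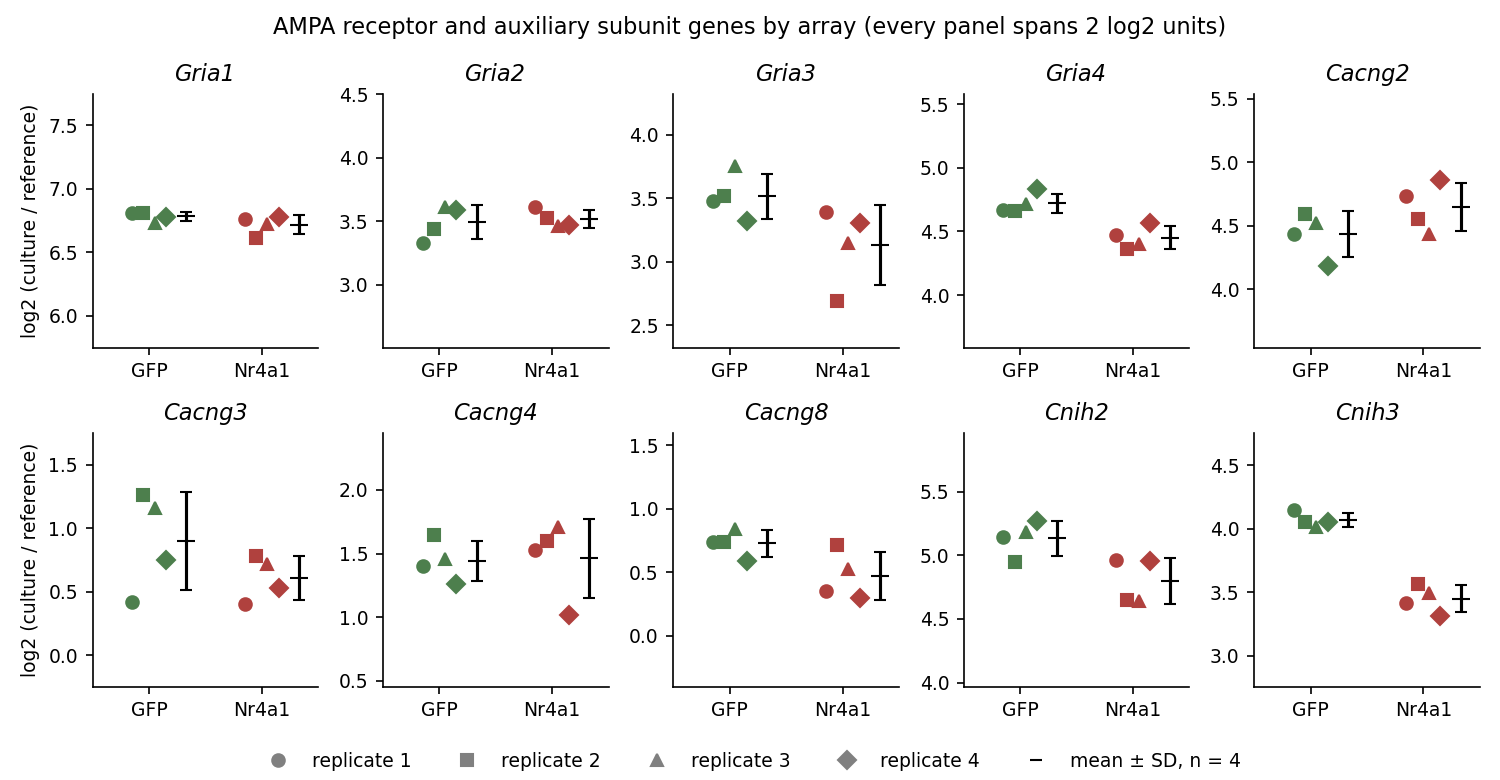
Log2 ratio of culture over reference RNA (vertical axis) on each array for the brightest probe of the 10 genes, with GFP-labelled arrays in green, Nr4a1-labelled arrays in red, 1 marker shape per replicate, and bars for the mean ± SD (n = 4). The 2 groups do not overlap for Gria4 and Cnih3, and they overlap for the other 8 genes.

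Among the 4 pore subunits both Gria3 probes and the brightest Gria4 probe fell slightly, and the Gria1 probe, both Gria2 probes and the dimmer Gria4 probe were not called. Gria1, whose product is trafficked into synapses in long-term potentiation, had log2 ratios of 6.81, 6.81, 6.73 and 6.78 on the GFP-labelled arrays (probe A_55_P2113758). It had 6.76, 6.61, 6.72 and 6.77 on the Nr4a1-labelled arrays. The values of both groups lie close together, and the replicate 2 array labelled Nr4a1 is the lowest of all 8. All 4 pairs were below 0, 3 of them by 0.05 or less. The difference was -0.06 ± 0.06 (SE; limma 95% interval -0.20 to 0.07, adjusted p = 0.492), so a change beyond 0.20 in log2 lies outside the interval of this fit. Over 21 other processing settings it ran from -0.72 to 0.011. It was called in 1 of them, Agilent's own ratio, at -0.24 (limma adjusted p = 0.0469).

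Gria2, which encodes the subunit that sets calcium permeability, gave log2 ratios of 3.33, 3.44, 3.61 and 3.59 with GFP and 3.62, 3.53, 3.46 and 3.47 with Nr4a1 on its brighter probe (A_55_P2031327). The groups overlapped fully, and pairs 1 and 2 went up by 0.28 and 0.09 where pairs 3 and 4 fell by 0.16 and 0.11. Its difference was 0.03 ± 0.08 (limma interval -0.15 to 0.20, adjusted p = 0.844). A second probe, annotated to another Gria2 transcript (A_65_P00930), had 3.04, 2.96, 3.00 and 2.79 with GFP and 3.08, 2.80, 3.32 and 2.62 with Nr4a1. Its Nr4a1 values spread on both sides of the GFP values, and its difference was 0.0043 ± 0.0846 (interval -0.18 to 0.19, limma adjusted p = 0.978). Both Gria2 probes had a reference signal that was not well above background on any of the 8 arrays, so their ratios rest on the Cy5 channel.

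Gria3 was lower on both of its probes. The brighter one (A_52_P68221) read 3.48, 3.52, 3.75 and 3.32 with GFP and 3.39, 2.69, 3.15 and 3.30 with Nr4a1. The fall is uneven: pairs 2 and 3 fell by 0.83 and 0.60, while pairs 1 and 4 fell by 0.08 and 0.02, and the groups overlap. By limma the probe was lower by a difference of -0.38 ± 0.12 (0.767 times the GFP ratio, adjusted p = 0.0461). It was -0.23 with an adjusted p of 0.166 without replicate 2, -0.31 with 0.151 without replicate 3, and -0.38 with 0.069 without the pair as a block.

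The second Gria3 probe (A_52_P179309) was lower in 4 of 4 pairs, by 0.12 to 0.26, with GFP values of 1.92, 2.18, 2.04 and 1.84 and Nr4a1 values of 1.80, 2.04, 1.78 and 1.58. The groups overlap, and the pairs are more even than on the first probe. Its difference was -0.20 ± 0.06 (1.15-fold lower, limma adjusted p = 0.0384). This call was lost when any of the 4 replicates was left out, with adjusted p from 0.0586 to 0.116, and without the pair as a block (0.191). The reference signal of this probe was well above background on 1 of the 8 arrays.

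Gria4 had the only pore-subunit probe whose groups did not overlap. Its brighter probe (A_55_P1987725) read 4.67, 4.67, 4.72 and 4.83 with GFP, a mean of 4.72 ± 0.078 (SD, n = 4). With Nr4a1 it read 4.47, 4.36, 4.40 and 4.57, a mean of 4.45 ± 0.089. Each Nr4a1-labelled array was below every GFP-labelled array, and the 4 pairs fell by 0.19 to 0.32. In the fit the difference was -0.27 ± 0.06 (interval -0.40 to -0.14, 1.21-fold lower, limma adjusted p = 0.00822), and it was called without any 1 of the replicates. On the Cy5 channel alone it was -0.22 with an adjusted p of 0.0527, and with arrays centred on the median it was -0.23 with 0.0722. A dimmer Gria4 probe annotated to another transcript (A_52_P349182) was not called, at -0.17 ± 0.09 (adjusted p = 0.223), with pairs of 0.07, -0.42, 0.07 and -0.39 and no reference signal well above background.

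Whether the pore subunits changed unequally was tested on the difference of their log2 ratios within each array, by exact two-sided permutation over the 70 ways to divide 8 arrays into groups of 4, with p adjusted over 7 pairs of members. Gria4 against Gria2 gave -0.30, with an exact p of 0.0286, the smallest these arrays allow, and an adjusted p of 0.15. Gria3 against Gria2 gave -0.41 (exact p = 0.0857, adjusted 0.15) and Gria1 against Gria2 gave -0.09 (exact p = 0.4, adjusted 0.467). None of the 3 passed, but after adjustment over 7 pairs no single pair could come under 0.05 by itself, even at the smallest exact p. The test therefore does not decide whether these subunits changed by different amounts or alike.

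**Figure D2:**
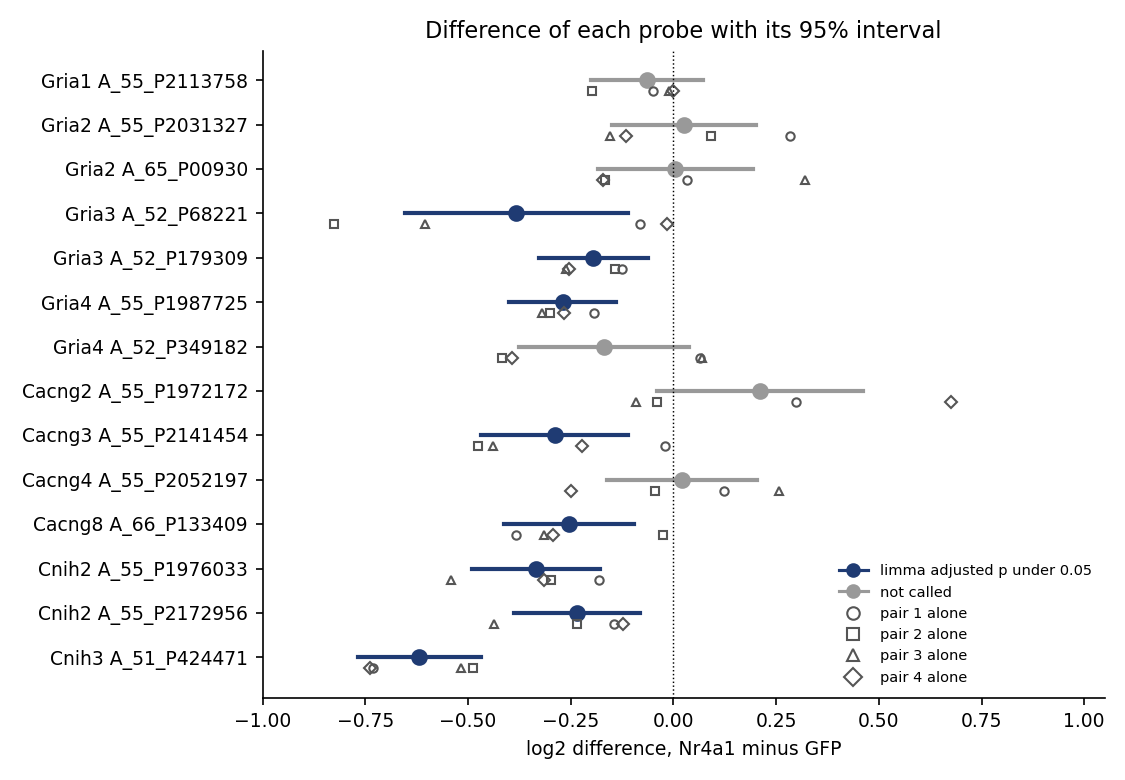
Log2 difference of each tested member probe, Nr4a1 minus GFP (horizontal axis), with its limma 95% interval, filled in blue where the adjusted p is under 0.05 and grey where it is not, and the 4 pairs' own differences as open markers. The 8 blue probes all lie below 0. The interval of Cnih3, -0.77 to -0.47, lies farthest from 0.

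Of the 4 TARPs, Cacng3 and Cacng8 were lower and Cacng2 and Cacng4 were not called. Cacng2, or stargazin, the first TARP known, read 4.44, 4.59, 4.52 and 4.18 with GFP and 4.74, 4.55, 4.43 and 4.86 with Nr4a1 (A_55_P1972172). Pairs 1 and 4 rose by 0.30 and 0.68 and pairs 2 and 3 fell by 0.04 and 0.09, so the groups overlap. With limma this gave 0.21 ± 0.11 (interval -0.04 to 0.46, adjusted p = 0.206). A second Cacng2 probe (A_52_P539692) was the member probe left untested, since its Cy5 signal stood well above background on 0 arrays with GFP and on 1 array with Nr4a1.

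Cacng3, a TARP of forebrain excitatory neurons, had a dim probe (A_55_P2141454) that read 0.42, 1.26, 1.16 and 0.75 with GFP and 0.40, 0.79, 0.72 and 0.53 with Nr4a1. All 4 pairs fell, by 0.02 to 0.48, and the groups overlap through the replicate 1 and replicate 4 arrays labelled GFP. On the replicate 1 array the spot was bright in both channels, at 308.5 in Cy5 and 225 in Cy3, where the other 7 arrays had Cy3 signals of 55 to 84. Over the 4 pairs the limma difference was -0.29 ± 0.08 (1.22-fold lower, adjusted p = 0.0267). On the Cy5 channel alone it was -0.79, and with Agilent's own ratio it was -0.0023 (limma adjusted p = 0.997), on a probe whose Cy3 signal was well above background on 3 of 8 arrays. The call was lost without replicate 2, 3 or 4, at adjusted p of 0.116, 0.0937 and 0.0595, and without the pair as a block, at 0.229.

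Cacng4, a TARP more abundant early in development, was not called. Its log2 ratios were 1.41, 1.64, 1.46 and 1.26 with GFP and 1.53, 1.60, 1.71 and 1.01 with Nr4a1 (A_55_P2052197), so the Nr4a1 values straddle the GFP values. Its limma difference was 0.02 ± 0.08 (interval -0.16 to 0.20, adjusted p = 0.878). The reference signal was not well above background on any of the 8 arrays.

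Cacng8, the TARP concentrated in the hippocampus, read 0.74, 0.74, 0.84 and 0.59 with GFP and 0.35, 0.71, 0.53 and 0.30 with Nr4a1 (A_66_P133409). All 4 pairs fell, and 3 of them by 0.29 to 0.38, while the replicate 2 pair fell by 0.03 and makes the groups overlap. The limma difference was -0.25 ± 0.07 (interval -0.41 to -0.10, 1.19-fold lower, adjusted p = 0.0270). It was not called without replicate 1, 3 or 4 (adjusted p of 0.108, 0.0789 and 0.0864) or without the pair as a block (0.0712). Its Cy5 signals were low, at 103 to 146.5 with GFP and 76.5 to 113.5 with Nr4a1, and the offset of 50 in the background correction shrinks the ratios of such dim probes. The reference signal of Cacng8 was well above background on 2 of the 8 arrays.

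Against Cacng2 within each array, Cacng8 differed by -0.47 (exact permutation p = 0.0571, adjusted 0.15), Cacng3 by -0.50 (exact p = 0.0857, adjusted 0.15) and Cacng4 by -0.19 (exact p = 0.629, adjusted 0.629). No TARP passed this test of unequal change, which no single pair could pass by itself after adjustment.

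The start-site region of Cacng8 is shown because, of the members' promoters given here, it was the only one with the half-site that nuclear receptors of the Nr4a kind recognise. RefSeq promoter sequences of build GRCm38.p6, from 250 bases before to 50 after the start, were given for 7 of the 10 members, and not for Gria1, Gria3 and Cacng4. The letters AGGTCA, searched on both strands, occur in 16.3% of 32851 such promoters, and the longer Nr4a1 element, AGGTCA with AA before it, in 1.51%. The half-site was in 1 of the 7 members' promoters, with 2 matches in Cacng8, and the longer element in 0 of the 7. A match describes letters in this window and not a bound site, and binding was not measured. Capitals mark the matches to AGGTCA or its reverse complement (chr7:3393792-3394091, + strand, 5′ to 3′).

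Cacng8: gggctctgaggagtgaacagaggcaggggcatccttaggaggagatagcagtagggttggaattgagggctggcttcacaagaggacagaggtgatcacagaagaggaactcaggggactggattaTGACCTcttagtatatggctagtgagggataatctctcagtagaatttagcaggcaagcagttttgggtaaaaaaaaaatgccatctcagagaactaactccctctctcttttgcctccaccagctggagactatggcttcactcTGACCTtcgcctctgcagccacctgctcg

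With the processing reported here the cornichons held the largest fall among the members, and all 3 cornichon probes were called lower. Cnih3 read 4.15, 4.05, 4.02 and 4.06 with GFP, a mean of 4.07 ± 0.056 (SD, n = 4; A_51_P424471). With Nr4a1 it read 3.42, 3.56, 3.50 and 3.32, a mean of 3.45 ± 0.106. Every Nr4a1-labelled array lay below the lowest GFP-labelled array, and the pairs fell by 0.49 to 0.74. The limma difference was -0.62 ± 0.07 (interval -0.77 to -0.47, 1.54-fold lower, adjusted p = 0.000143), and it was called without any 1 of the replicates and without the pair as a block.

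The signals of both channels moved on the Cnih3 spot. Its Cy5 signals were 1984, 2647, 2080.5 and 1907.5 with GFP and 911, 1399, 1472 and 656 with Nr4a1. Its reference signals in Cy3, which come from the same reference RNA on every array, were 86, 94, 100 and 94 on the GFP-labelled arrays and 62, 77, 79 and 59 on the Nr4a1-labelled arrays. Neither channel overlapped between the groups, and the Cy3 signal was well above background on 6 of the 8 arrays. On the Cy5 channel alone the difference was -1.09 (limma adjusted p = 0.000136). With Agilent's own ratio, which divides by the background-subtracted Cy3 signal, it was -0.06 (limma adjusted p = 0.744). With a smaller offset of 16 in the background correction it was -0.46 (limma adjusted p = 0.00286), beside the reported -0.62. It was -0.61 with no background subtracted and -0.68 with 1 background for the whole array. The size of the Cnih3 fall thus depended on how the background was handled. What lowered the reference signal of this spot was not tested.

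**Figure D3:**
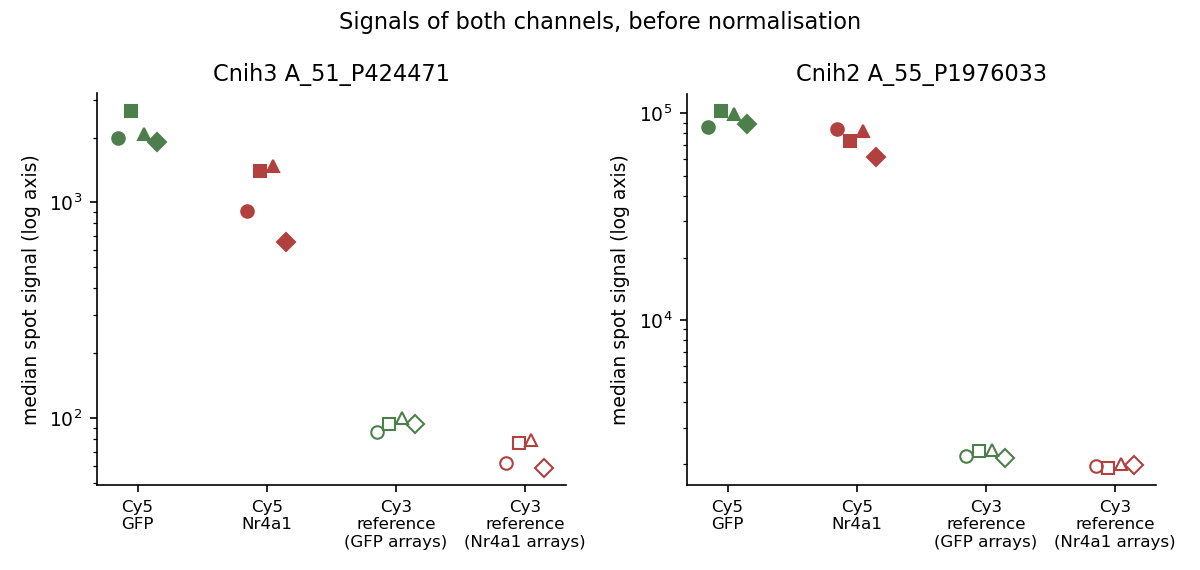
Median spot signal before normalisation (log axis) in the Cy5 channel (culture, filled) and the Cy3 channel (reference, open) for Cnih3 and the brighter probe of Cnih2, with GFP-labelled arrays in green, Nr4a1-labelled arrays in red and 1 marker shape per replicate (circle 1, square 2, triangle 3, diamond 4). For both probes the 2 groups are apart in both channels. The Cy3 signals of Cnih3 are at 59 to 100.

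Cnih2, the cornichon of hippocampal pyramidal neurons, read 5.14, 4.95, 5.18 and 5.27 with GFP and 4.96, 4.65, 4.64 and 4.95 with Nr4a1 on its brighter probe (A_55_P1976033). All 4 pairs fell, by 0.18 to 0.54, and the groups overlap only where the lowest GFP value, of replicate 2, lies just under the Nr4a1 values of replicates 1 and 4. The limma difference was -0.33 ± 0.07 (interval -0.49 to -0.18, 1.26-fold lower, adjusted p = 0.00678), and it was called without any 1 of the replicates and without the pair as a block. With arrays centred on the median it was -0.17 (adjusted p = 0.216). Its Cy5 signals were 85957 to 102438 with GFP and 61658 to 83912 with Nr4a1, and its Cy3 signals were 2134 to 2354.5 and 1929 to 2003, so the reference was slightly lower on this spot too.

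The second Cnih2 probe (A_55_P2172956) read 4.24, 4.05, 4.29 and 4.32 with GFP and 4.10, 3.82, 3.86 and 4.20 with Nr4a1. It also fell in 4 of 4 pairs, by 0.12 to 0.44, with overlapping groups and overlapping Cy3 signals of 3597 to 3990 and 3655.5 to 4103.5. Its Cy5 signals overlapped too, at 75995 to 89466 with GFP and 63774.5 to 89342 with Nr4a1. The limma difference was -0.23 ± 0.07 (1.18-fold lower, adjusted p = 0.0328). On the Cy5 channel alone it was -0.21 and not called (limma adjusted p = 0.0536). The call was lost without replicate 1, 2 or 3, at adjusted p of 0.0526, 0.0934 and 0.117, without the pair as a block, at 0.1, and with arrays centred on the median, where the difference was -0.12 (0.427). Cnih3 and Cnih2 were not shown to change unequally: Cnih3 minus Cnih2 was -0.28 (exact permutation p = 0.171, adjusted 0.24).

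The start-site regions of both cornichon genes are shown because these were the 2 of the 7 members' promoters with a GC box, GGGCGG, searched on both strands and present in 35.7% of all 32851 promoters. Gria4, Cacng3 and Cacng8, which were called lower too, held 0 matches. Cnih2 held 3 matches and Cnih3 held 1, marked in capitals. Of the 300 bases, 75.3% were G or C in Cnih3 and 67.3% in Cnih2, with 42 and 25 CpG pairs of letters, where the median promoter had 52.7% and 7. Gria2, which was not called, had 65.7% and 26, and the called Gria4, Cacng3 and Cacng8 had 59.7% and 17, 55.7% and 9, and 50% and 2. Neither cornichon promoter held AGGTCA, which says only that these letters are not in this window. The regions are chr1:181352378-181352677 on the + strand for Cnih3 and chr19:5098472-5098771 on the - strand for Cnih2, both in GRCm38.p6 from RefSeq and 5′ to 3′.

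Cnih3: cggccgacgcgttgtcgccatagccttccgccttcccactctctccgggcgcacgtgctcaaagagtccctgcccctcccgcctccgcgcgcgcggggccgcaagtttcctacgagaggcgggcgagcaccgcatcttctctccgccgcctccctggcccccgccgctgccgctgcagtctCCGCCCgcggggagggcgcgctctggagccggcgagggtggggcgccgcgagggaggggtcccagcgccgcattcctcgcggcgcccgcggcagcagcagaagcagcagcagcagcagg
Cnih2: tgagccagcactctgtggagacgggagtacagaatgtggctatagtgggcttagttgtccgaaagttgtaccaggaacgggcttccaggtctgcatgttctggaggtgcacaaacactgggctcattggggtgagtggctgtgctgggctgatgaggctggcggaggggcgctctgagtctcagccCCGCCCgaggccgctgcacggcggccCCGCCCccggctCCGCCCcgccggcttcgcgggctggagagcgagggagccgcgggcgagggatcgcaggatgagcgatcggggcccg

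The processing was varied in 21 other settings, of which 7 leave the differences as they are and can bear on the calls alone, and 1 repeats another on the same arrays. In the other 13 none of the 8 called probes changed sign, though Cacng3 came to -0.0023 with Agilent's own ratio. Quantile normalisation of the reference channel, among the 7, left the calls as they were too. The counts below include it and the repeated setting. The call of Cnih3 was kept in 18 of the 21, that of the brighter Cnih2 probe in 17 and that of the brighter Gria4 probe in 16. Those of Cacng8, Cacng3 and the brighter Gria3 probe were kept in 12, 11 and 11 of 21, and those of the second Cnih2 and Gria3 probes in 9 and 5 of 19. On the Cy5 channel alone 6 member probes were called, all lower, where 28.4% of all probes were called in that channel. They were Gria3, Cacng3, Cacng8, Cnih2 and Cnih3 by their brightest probes and Gria4 by its dimmer probe. Agilent's own ratio called 2 lower, Gria1 at -0.24 (limma adjusted p = 0.0469) and the second Cnih2 probe at -0.33 (adjusted p = 0.0486).

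**Figure D4:**
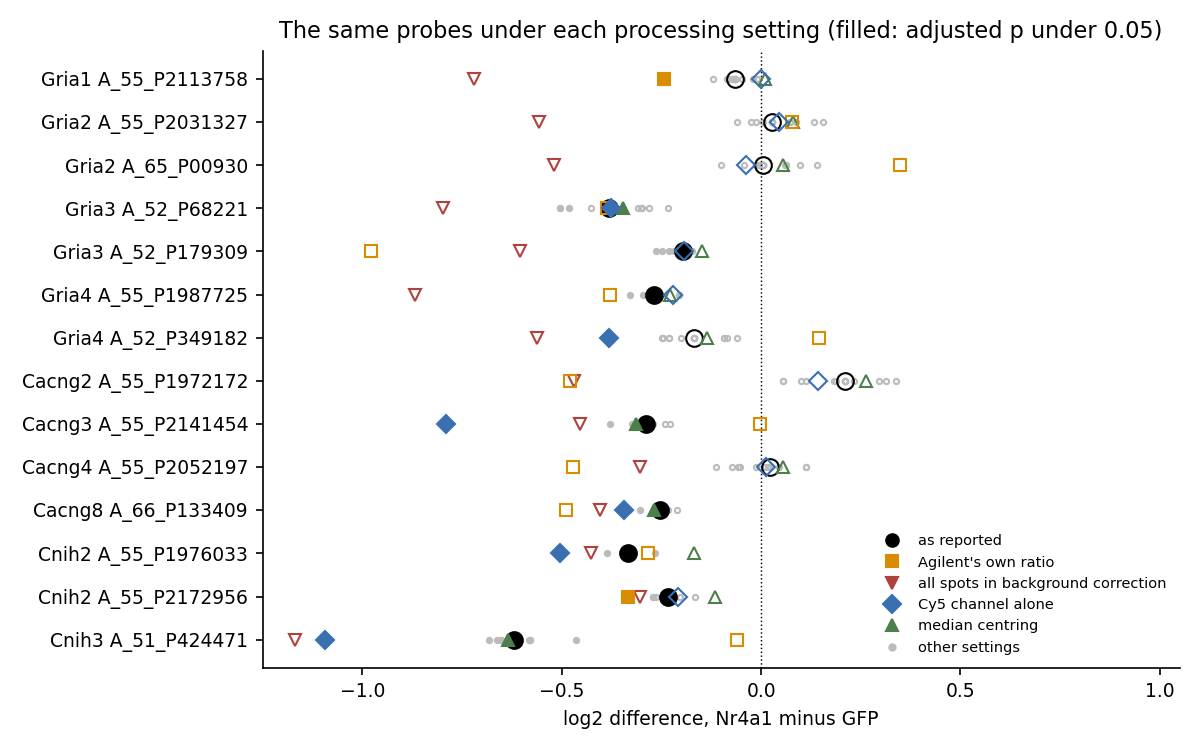
Log2 difference of each member probe, Nr4a1 minus GFP (horizontal axis), as reported (black circles) and under the other processing settings, with 4 settings marked by their own symbols and the rest in grey. Symbols are filled where the limma adjusted p is under 0.05. Agilent's own ratio puts Cnih3 at -0.06 and the Cy5 channel alone puts it at -1.09.

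The genes around the receptor went in both directions in each of 4 lists. Of 18 tested genes of other auxiliary and assembly proteins, 6 were lower, 2 were higher and 10 were not called, with a median of -0.13 and 44.4% called beside 24.1% over all genes. Prrt1, a membrane protein found in native receptor complexes, fell from a log2 ratio of 1.35 ± 0.189 (SD, n = 4) to 0.64 ± 0.092, a difference of -0.70 ± 0.07 (SE; limma adjusted p = 9.47e-05). Syndig1, which promotes excitatory synapse development, fell by 0.67 in log2 (adjusted p = 0.000122, limma). Shisa9, an auxiliary subunit that shapes short-term plasticity, fell by 0.44 (limma adjusted p = 0.00131). The other genes lower here were Shisa7 (-0.40), Olfm1 (-0.32) and Gsg1l (-0.23), all known from receptor complexes. In the other direction, the TARP relative Cacng5 rose by 0.46 ± 0.07 (limma adjusted p = 0.00108), and Abhd6, which restrains surface delivery of AMPA receptors, rose by 0.25.

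Of 27 tested scaffolds and sorting proteins 2 were higher, 3 lower and 22 not called, a called share of 18.5% beside the 24.1% of all genes, with a median of -0.03. Arc, an activity-induced protein that drives AMPA receptor endocytosis, was higher by 1.34 ± 0.31 (SE; limma adjusted p = 0.0108), but unevenly, with pairs of 2.13, 0.14, 2.41 and 0.68. Myo5a, a motor that carries cargo into spines, was higher by 0.98 ± 0.08 (limma adjusted p = 3.46e-05). Sdcbp, the scaffold syntenin, was lower by 0.33 (adjusted p = 0.00594, limma). Dlg4, which encodes the postsynaptic scaffold that anchors TARPs, was lower by 0.26 ± 0.07 in 4 of 4 pairs (limma adjusted p = 0.0189). Snap47, a vesicle fusion protein, was the third gene lower here, at -0.22. Grip1 and Pick1, which bind the tails of Gria2 and Gria3 products, were not called, at -0.03 and -0.10. Nsf, which binds the tail of the Gria2 product, was not called either, at -0.02.

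Secreted and surface organisers had 3 genes higher, 2 lower and 5 not called of 10 tested, with a median of -0.03. The called share was 50%, beside 24.1% over all genes. Lrrtm2, a postsynaptic adhesion protein that holds AMPA receptors at synapses, fell from 4.36 ± 0.081 to 3.42 ± 0.185 (SD, n = 4), a difference of -0.95 ± 0.09 (SE; limma adjusted p = 4.62e-05). C1ql3, a secreted synaptic protein, fell by 0.76 (limma adjusted p = 8.33e-05). Nptx2, the activity-regulated pentraxin that clusters AMPA receptors, rose by 0.45 ± 0.11, with pairs of 0.63, 0.03, 0.81 and 0.34 (limma adjusted p = 0.0139). Cdh2, or N-cadherin, rose by 0.34 (limma adjusted p = 0.0167) and Nlgn3, a neuroligin, rose by 0.31.

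Kinases, phosphatases and RNA-editing genes split evenly, with 3 higher, 3 lower and 11 not called of 17 tested. The called share was 35.3%, beside 24.1% over all genes, and the median was -0.05. Adarb1, whose enzyme edits the Gria2 transcript at the codon that sets calcium permeability, was lower by 0.26 ± 0.07 in 4 of 4 pairs (limma adjusted p = 0.0276). The array does not read the editing itself. Ppp2ca, a catalytic subunit of protein phosphatase, was lower by 0.19. Rest, a repressor of neuronal genes that include receptor subunits, was higher by 0.29 (limma adjusted p = 0.0218), and Prkg2, a cyclic GMP dependent kinase, by 0.23 (adjusted p = 0.0168, limma). Ppp3ca, the catalytic subunit of calcineurin, was higher by 0.27. Across the 4 lists 10 genes were higher and 14 lower.

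**Figure D5:**
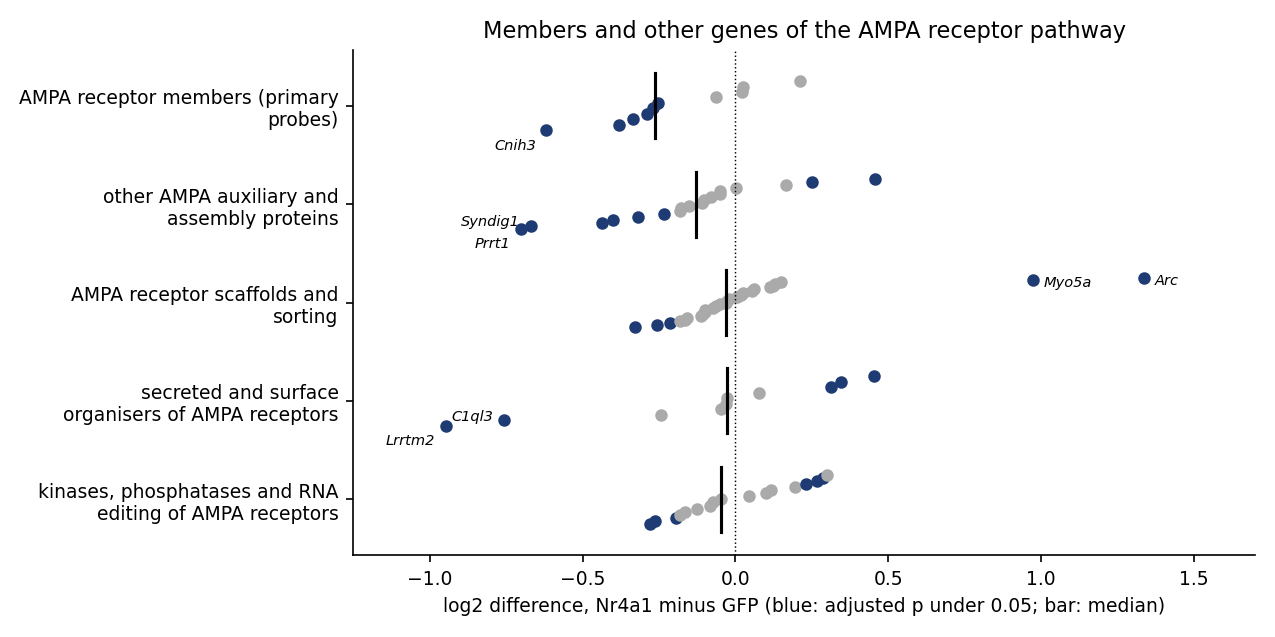
Log2 difference, Nr4a1 minus GFP (horizontal axis), for the brightest probe of each member gene and of each tested gene of the 4 other AMPA receptor lists, blue where the limma adjusted p is under 0.05, with a bar at each list's median. The members' blue points all lie below 0, and Prrt1 (-0.70) and Syndig1 (-0.67) lie farthest left in their list. In the scaffold list Arc (1.34) and Myo5a (0.98) lie to the right.

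Cell type markers were read on the same arrays, since in a mixed culture fewer cells of a type and less RNA per cell cannot be told apart. The summed Cy5 signals are taken before normalisation, weigh the brightest probes most and do not measure cell numbers. Over all genes and unnamed transcripts 24.1% were called in either direction. Pan-neuronal markers were present on every array, and 1 of 8 was lower, Syt1 at -0.25, with a list median of -0.15 and summed Cy5 signals of 302216 to 377018 with GFP and 246856 to 379674 with Nr4a1. Of 6 tested glutamatergic markers 1 was lower, Neurod6 at -0.39, with sums of 33796 to 52336 and 24165.5 to 46690.5. Of 8 interneuron markers Dlx1 was higher (0.41) and Sst lower (-0.23), with sums of 56638 to 92759 and 53482 to 75562. Of the oligodendrocyte lineage markers 5 of 8 were higher and 1 was lower, among them Pdgfra at 0.76 and Mbp at -0.94, with sums of 15715 to 31198 with GFP and 30383 to 65497 with Nr4a1. Of 7 astrocyte markers 2 were higher, Aqp4 at 0.43 and Gja1 at 0.37, with sums of 38403 to 54635 and 37807 to 67760. Microglial markers Cx3cr1, C1qa and P2ry12 were too dim to test, and of the other 4 Csf1r was lower (-0.75), with sums of 16598.5 to 24978 and 14091.5 to 23697.5. Of 6 fibroblast and endothelial markers Dcn (-0.59, limma adjusted p = 0.00034) and Lum (adjusted p = 1.73e-05) were lower, with sums of 5180.5 to 6339.5 and 5082 to 7289.5. How far these markers bear on the differences of the AMPA receptor genes was not tested.

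The genes whose log2 ratios ran most like those of 2 members across the 8 arrays are given as a description only, among 14980 named genes and over arrays that share slides and pairs. For Gria2 they were Grhl1, Krtap1-4, Rbm4b, Slc35g2 and Cplx3, at Pearson r of 0.962 to 0.921, and their own differences were at most 0.03 in log2. For Cnih3, the member of smallest p, they were Morn1, Ece2, Ssbp2, Ccdc91 and Wnt7b, at r of 0.995 to 0.989. Because the groups do not overlap for Cnih3, genes chosen for likeness to it are lower with Nr4a1 by the choice itself, here by 0.54, 0.34, 0.49, 0.24 and 0.97 in log2.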

How the data were processed

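The 8 arrays (4 labelled Nr4a1, 4 labelled GFP) were analysed, grouped by the transgene in the labels. Before the authors deposited the scanner files, Agilent Feature Extraction (11.0.1.1 in the headers) read each spot's median signal and background intensity in both channels on a linear scale, per the file headers. It also computed the log10 ratio of Cy5 over Cy3 from background-subtracted, dye-normalised signals, per the file headers, and set flags for spots well above background, outliers and non-uniform background. The authors deposited a value table too, read as log2 of sample over reference because its columns followed the ratios computed here (r of 0.998 to 1.00, slopes of 0.992 to 1.01, medians of 0.0240 to 0.0312). Limma and Agilent Feature Extraction are named in the submitters' processing notes, and the settings are not given in the sources used here.

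Here normexp with an offset of 50 was used for the background, leaving out spots with a non-uniform local background (37 on Nr4a1-labelled replicate 2, at most 10 elsewhere). Ratios were normalised by loess within arrays with control spots at weight 0, and spots of a probe were averaged. A probe was tested where its Cy5 signal was well above background on at least 4 arrays, with at least 3 values in either group. Tests were run with limma 3.58.1 under R 4.3.3, with the pair tag of the labels as a block, two-sided p-values adjusted by Benjamini-Hochberg over all tested probes, and the script was tested on simulated data. Deviations from the group means correlated within the 4 pairs at -0.12, 0.28, -0.02 and 0.43, so the values do not bear out every pair. A fold is 2 to the power of the size of the log2 difference.

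Probe names came through RefSeq for 26581 of 39429 probes. The text names all members and, of each other AMPA receptor list, the 4 genes of smallest p and the remaining called genes. Some genes that this rule or a marker list holds are not reported here. The remaining called genes, Grip1, Pick1 and Nsf, and the named markers were picked after their values were seen. The 5 genes most like Gria2 and the member of smallest p are named by Pearson r. The brightest probe of a gene is that with the highest mean Cy5 intensity. The members and lists were chosen with earlier results of these data known. Promoters were read from RefSeq, build GRCm38.p6.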

Additional observations from a re-analysis of the deposited data

How the results depend on the processing

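The count of 8 member probes lower was 0 with all spots kept in the background correction (4 lower at an unadjusted limma p under 0.05) and 0 with the replicate block and the slide as a random block (1 unadjusted). It was 2 with Agilent's own ratio, 3 with no replicate block and at an adjusted p under 0.01, 4 with median centring and with an offset of 16, 5 with the batch as a block and within batch 1, and 3 to 5 without 1 of the replicates. Batch 2 holds 1 pair, so batch 1 alone is the same as leaving out replicate 4. The count was 6 to 8 under the other settings. Among these the authors' table and 1 probe a gene held 10 member probes in place of 14, with 6 lower in each. The 6136 calls over all probes became 228 with all spots, 3265 with Agilent's ratio, 14 with the slide block, 3178 at the stricter threshold, 9335 unadjusted, and 4082 to 5291 without 1 replicate. Of the other pathway genes 10 were higher and 14 lower. With all spots and with the slide block both counts were 0 (unadjusted 3 and 14, and 1 and 4), and with Agilent's ratio they were 1 and 3. Those higher were 6 with offset 16 and within batch 1, 2 at the stricter threshold, and 4 to 9 without 1 replicate, and those lower were 9 at the stricter threshold. With median centring 14 were higher and 7 lower, so the balance of directions turned over.

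No called member probe changed sign in the 13 settings that move the differences, but 6 uncalled probes did, in 23 values, none of them called. With all spots kept, the differences were -0.56 and -0.52 for the brighter and dimmer Gria2 probes, -0.47 for Cacng2 and -0.30 for Cacng4. With Agilent's ratio they were 0.15 for the dimmer Gria4 probe, -0.48 for Cacng2 and -0.47 for Cacng4. With the slide block they were -0.013 and -0.044 for the 2 Gria2 probes and -0.053 for Cacng4, and with an offset of 16 they were -0.026 and -0.0069 for the Gria2 probes. Gria1 read 0.011 with median centring and 0.00084 on Cy5 alone, where the dimmer Gria2 probe read -0.037, as it read -0.013 in the authors' table. Cacng4 read -0.11 with no background subtracted and -0.073 with 1 background for the whole array, a setting chosen after seeing the data. Without 1 of the replicates the brighter Gria2 probe ran from -0.060 to 0.087, the dimmer one from -0.10 to 0.063 and Cacng4 from -0.057 to 0.11, and the values below 0 also included -0.0056 for the dimmer Gria2 probe and -0.012 for Cacng4, both without replicate 1.

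No test of unequal change had an adjusted p below 0.05, and without 1 replicate none could, since 3 against 3 arrays allow no exact p below 0.1. On the Cy5 channel alone 4 of the 7 tests reached an adjusted p of 0.05 itself by exact permutation. Against Cacng2 they turned to 0.015 for Cacng3, 0.17 for Cacng4 and 0.065 for Cacng8 with all spots, and to 0.48 for Cacng3 and 0.0093 for Cacng4 with Agilent's ratio, where Cnih3 against Cnih2 was 0.22. Without replicate 4, Cacng4 against Cacng2 was 0.056, in a range of -0.37 to 0.056. Paired by sign flips with the replicate block, Gria4 against Gria2 stayed at -0.30 with an exact p that cannot go below 0.125. The causes were not tested. Dim reference signals limit the ratios: 4 of the 14 tested probes had Cy3 well above background on all 8 arrays and 5 on none.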
